A study of Mus musculus with 15 samples.

Results

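Genes for making cholesterol and fatty acids were followed across mouse B cells, together with genes that sense sterols and genes that export cholesterol. The 34 genes were chosen by name from known pathway membership: 7 enzymes from acetyl-CoA to farnesyl diphosphate, 11 enzymes from squalene to cholesterol, 5 regulators, 8 enzymes of fatty acid synthesis, elongation and desaturation, and 3 genes of liver X receptor signalling and efflux. They are 34 of the 54838 genes in the count table, and all 34 passed the filter on low counts.

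Poly(A) RNA was sequenced from 15 libraries, 3 in each of 5 groups of splenic B cells, and each group has replicates A, B and C. Donors were male wild-type mice of 3 months, given sheep red blood cells (SRBC) 9 days earlier. B cells of the naive and the germinal centre (GC) type were sorted after magnetic enrichment, and their titles name no culture. The design text counts the animals as 3 x 2 and does not say whether any were pooled. The other 9 libraries came from naive cells cultured for 5 days in medium made for embryonic stem cells, with anti-CD40 antibody at 5 µg/ml, CpG oligonucleotide at 2 µM or lipopolysaccharide (LPS) at 25 µg/ml, renewed on day 3. Interleukin 4 at 80 ng/ml is named beside anti-CD40, and whether it was also given with CpG and LPS is not settled by the labels. The labels do not say what the letters stand for, so p-values measure the spread between these libraries, which may be technical. Activation and culture cannot be told apart in any comparison of activated with naive or GC cells.

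Cells build cholesterol from acetyl-CoA through the mevalonate pathway, whose intermediates also feed the isoprenoids that anchor proteins to membranes. When sterols in the endoplasmic reticulum run low, the escort protein Scap carries the transcription factors Srebf1 and Srebf2 to the Golgi, where they are cut and released to switch on genes of synthesis. Insig1 holds them back when sterols are plentiful. Liver X receptors respond to oxidised sterols and switch on Abca1 and Abcg1, which move cholesterol out of the cell. Lymphocytes that start to divide are known to need new membrane and to raise sterol and fatty acid synthesis.

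Promoter sequence was taken from RefSeq (GRCm38.p6), whose table matched 26 of the 34 genes with 32 start sites. The 250 bases before the start are shown for 4 genes on which the results turn. Hmgcs1 and Mvd act in the mevalonate pathway and rose in activated cells, Fasn builds palmitate and rose in activated cells, and Abca1 exports cholesterol and fell. Each is written 5′ to 3′ on the strand of the gene, at chr13:119690101-119690350 (plus strand), chr8:122443423-122443672 (minus), chr11:120824548-120824797 (minus) and chr4:53159896-53160145 (minus). Capitals mark matches on either strand to TCACNCCAC, a form of the sterol response element that Srebf proteins bind, and to CCAAT, the core bound by nuclear factor Y, which reads ATTGG on the opposite strand.
Hmgcs1: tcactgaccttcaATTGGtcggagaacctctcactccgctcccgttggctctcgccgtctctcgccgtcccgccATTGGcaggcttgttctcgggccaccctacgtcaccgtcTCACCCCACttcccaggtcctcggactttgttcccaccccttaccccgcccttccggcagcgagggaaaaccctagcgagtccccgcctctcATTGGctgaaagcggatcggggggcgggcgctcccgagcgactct
Mvd: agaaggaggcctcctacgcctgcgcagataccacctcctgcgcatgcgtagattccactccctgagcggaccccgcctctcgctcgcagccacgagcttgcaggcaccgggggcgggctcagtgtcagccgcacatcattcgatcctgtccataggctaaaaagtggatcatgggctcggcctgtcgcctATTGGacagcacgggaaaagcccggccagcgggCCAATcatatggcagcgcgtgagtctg
Fasn: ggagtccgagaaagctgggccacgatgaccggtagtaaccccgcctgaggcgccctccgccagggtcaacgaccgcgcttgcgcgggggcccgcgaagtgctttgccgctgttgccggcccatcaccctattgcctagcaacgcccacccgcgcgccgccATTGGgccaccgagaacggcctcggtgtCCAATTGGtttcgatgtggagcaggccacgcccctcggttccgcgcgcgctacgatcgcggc
Abca1: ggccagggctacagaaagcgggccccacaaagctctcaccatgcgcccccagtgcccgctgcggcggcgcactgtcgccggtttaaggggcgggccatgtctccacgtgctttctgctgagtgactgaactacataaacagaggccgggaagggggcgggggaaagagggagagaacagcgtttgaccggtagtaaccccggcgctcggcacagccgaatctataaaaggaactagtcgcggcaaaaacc

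Of the 26 genes, Hmgcs1 alone matched TCACNCCAC in this window, at 137 bases before its start, and 1.05% of all 32851 promoter entries held a match. Forms with another base at a fixed position were not searched. The other members are therefore not shown to lack a sterol response element. Hmgcs1 also had 3 CCAAT matches, Fasn 3, of which a pair overlap each other, Mvd 2 and Abca1 0. CCAAT occurred at 19 of the 32 member start sites (59.4%) and in 33.8% of all entries. GGGCGG, the GC box bound by Sp1, occurred at 23 (71.9%) against 32.7% of all entries. CACGTG, an E-box, occurred at 6 (18.8%) against 6.02%. The liver X receptor element was searched only as an exact direct repeat of AGGTCA with any 4 bases between. It occurred at 0 member sites and in 0.0152% of entries. Repeats that differ from AGGTCA in any base were not searched, so this does not show that a member lacks such an element. All searches covered both strands, and a match is a run of letters with no binding measured here.

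Library totals ran from 25397624 to 36272197 counts. Levels below are CPM (counts scaled to library size after TMM normalisation). Summed B cell markers were 7080 to 9208 CPM in naive, 6392 to 6863 in GC and 3598 to 4701 in activated libraries, and naive and GC marker lists were highest in the groups they are named for. The 5 T cell markers summed to at most 6.65 CPM in any library, with Cd3e and Cd8a at 0 in all naive and GC libraries. Myeloid markers summed to 8.22 to 21.7, 10.2 to 16.4 and 26.8 to 47.9 CPM. Of these 5 markers, Cd68 was at 0 to 7.87 CPM in naive and 15.2 to 42.4 in activated libraries and Adgre1 at 1.26 to 10.1 and 2.81 to 23.7, while Lyz2 and Itgam stayed at or below 6.87 and 5.85 in every library and Csf1r was at 0 in all activated libraries. Plasma cell markers summed to 302 to 347, 1452 to 1838 and 1143 to 4907 CPM and dividing-cell markers to 22.4 to 33.8, 2406 to 2753 and 947 to 1352 CPM, and the part of these lists in the results was not tested. In bulk RNA, fewer cells of a type and less RNA per cell cannot be told apart. Genes detected varied among naive libraries, at 13920 in A, 11523 in B and 18866 in C. Naive replicate B had the fewest and the highest haemoglobin level, 265 CPM of its total. Idi1, Fdps, Tm7sf2, Elovl6 and Fads1 had 0 counts in that library and no other, so member values without it are given beside the results they change. Genes outside the members are given with all libraries only.

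**Figure D1:**
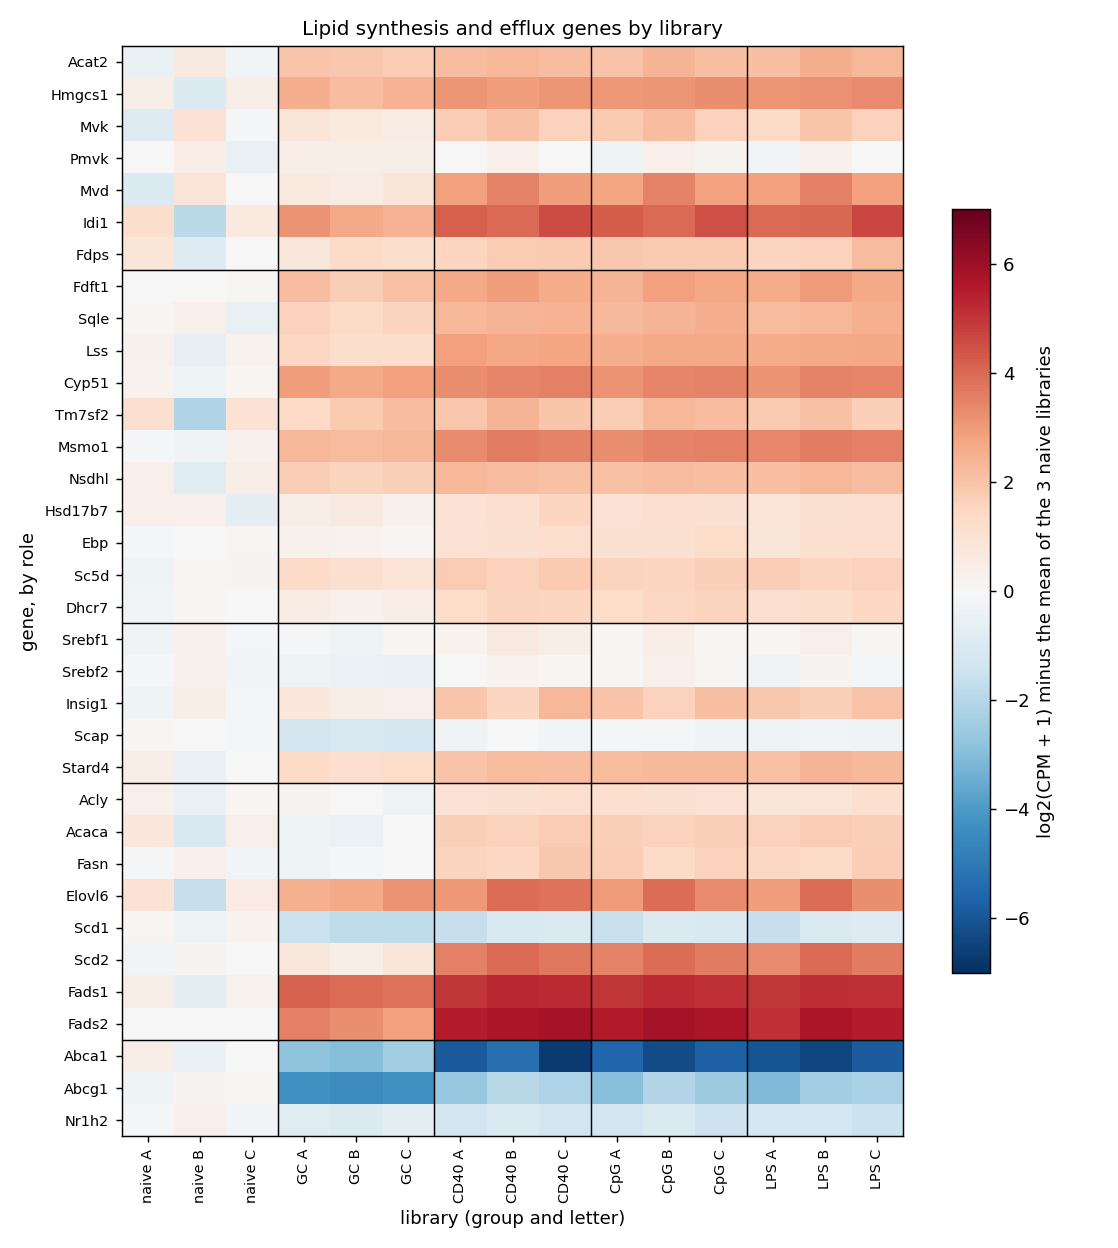
Rows are genes in the order of their steps and columns are libraries, and colour gives log2(CPM + 1) minus the mean of the 3 naive libraries. Most synthesis genes are above naive in GC and further above in the 9 activated libraries, Srebf1 and Srebf2 stay near naive, and Scd1, Abca1, Abcg1 and Nr1h2 lie below it.

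GC cells held more RNA than naive cells for most steps from squalene to cholesterol and for the desaturases Scd2, Fads1 and Fads2. They held less for the desaturase Scd1 and for the cholesterol exporters. Of the 34 genes, 16 were higher and 5 lower in GC cells, with edgeR's quasi-likelihood test and adjusted p under 0.05 over 17144 genes. Of all genes tested, 17.9% were higher and 16.5% lower. The median log2 fold change was 0.61 over the 34 genes and 0.00 over all genes. Leaving out naive replicate B gave 21 higher and 6 lower members and a median of 0.88. The share of all genes called in that fit is not given here. For this reason, counts of members without this library, here and below, are not read as a result about the members.

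Cultured activated cells held more RNA than naive cells both for cholesterol and for fatty acid synthesis. The counts against naive were 24 higher and 4 lower for each stimulus, and these were the same 24 and the same 4 genes for CD40, CpG and LPS. Among all genes, 19.8%, 19.7% and 19.5% were higher and 14.3%, 14.0% and 14.2% lower. Median log2 fold changes over the 34 genes were 1.86, 1.82 and 1.74, beside 0.17, 0.18 and 0.18 over all genes. All 4 comparisons share the naive libraries. The 16 genes higher in GC cells were all among the 24, and Scd1, Abca1, Abcg1 and Nr1h2 were lower in each comparison.

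**Figure D2:**
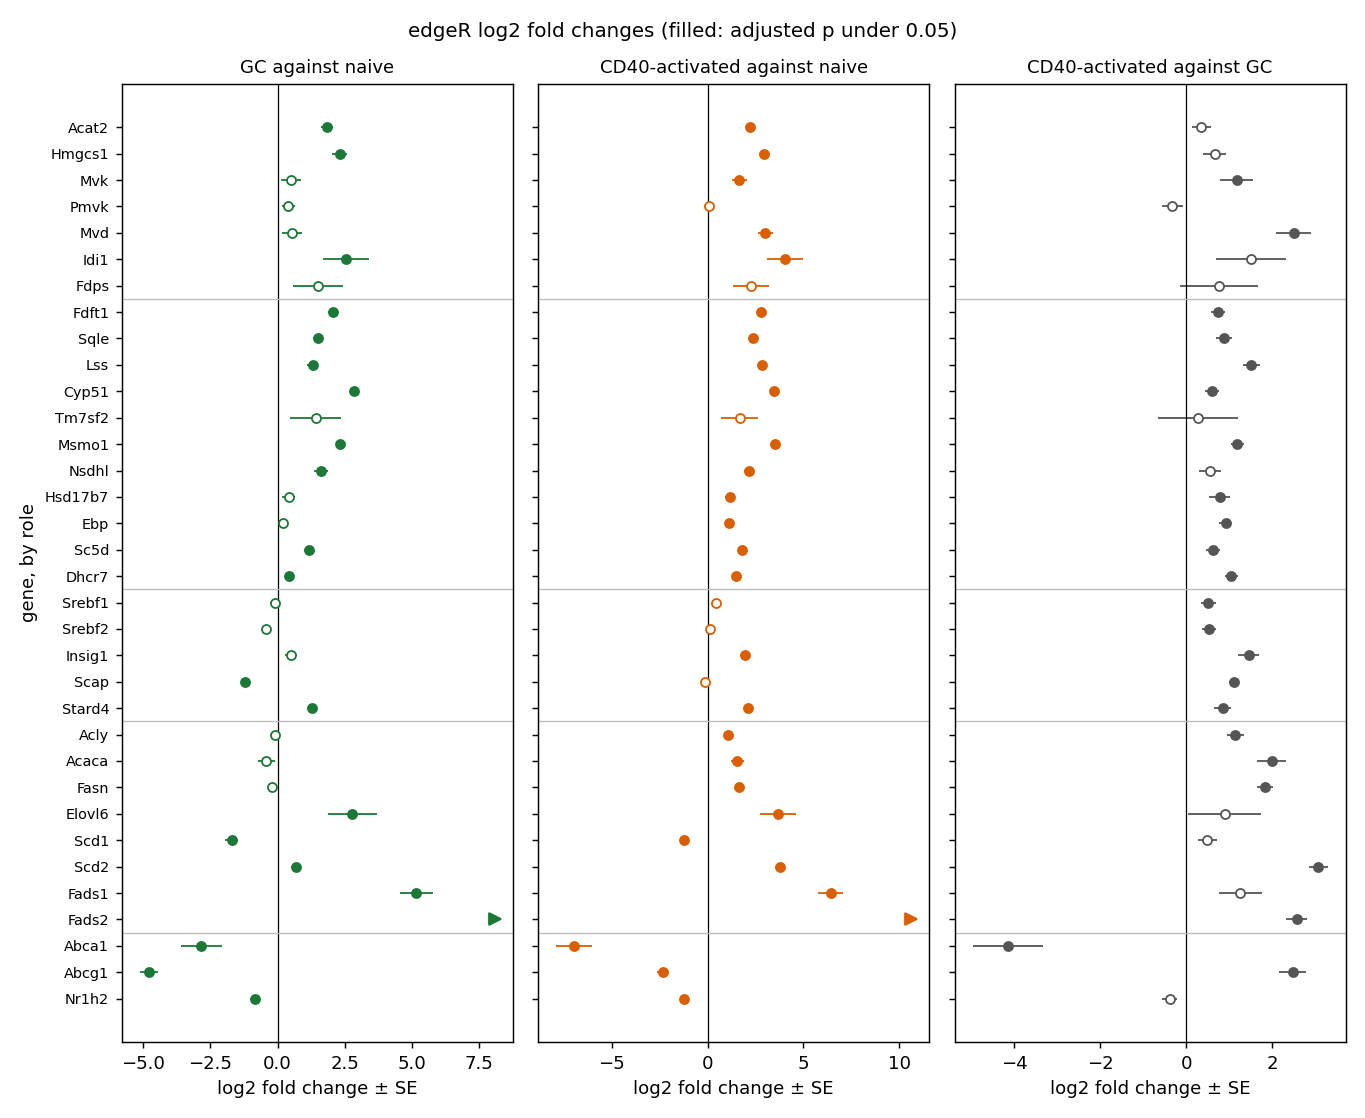
Points are log2 fold changes with bars of 1 SE for GC against naive, CD40-activated against naive and CD40-activated against GC cells, and filled points had an adjusted p under 0.05. Triangles mark the lower bound for Fads2, which had no count in naive cells, and the efflux genes lie left of 0 in both comparisons with naive.

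Among the 7 genes from acetyl-CoA to farnesyl diphosphate, 3 rose in GC cells and 5 with each stimulus. Without naive replicate B, 6 rose in GC cells and 6 with each stimulus. Their summed level was 125 ± 26.1 CPM in naive (mean ± SD, n = 3 here and below), 323 ± 23.7 in GC, and 578 ± 35.7, 584 ± 57.7 and 602 ± 75.0 CPM with CD40, CpG and LPS. Hmgcs1 condenses acetyl-CoA with acetoacetyl-CoA. Replicates A, B and C of naive cells held 28.1, 10.2 and 28.9 CPM of it, and GC cells 122, 96.1 and 115 CPM. Activated cells held 183, 163 and 180.1 CPM under CD40, 177, 179 and 205 under CpG and 182, 197 and 213 under LPS. Naive, GC and activated libraries did not overlap. The log2 fold change against naive was 2.31 (SE 0.28, edgeR adjusted p = 1.95e-05) in GC cells and 2.97 (SE 0.29, adjusted p = 2.95e-06) with CD40.

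Idi1, the isomerase that makes dimethylallyl diphosphate, had the largest fitted fold change of these 7 genes in GC and in CD40-activated cells, a rank that rests on its 0 counts in naive replicate B. Naive libraries held 7.80, 0 and 4.93 CPM and GC libraries 32.7, 22.9 and 19.1 CPM. The activated values were 67.0, 57.5 and 86.9 CPM for CD40, 69.8, 56.6 and 84.9 for CpG and 56.3, 59.5 and 95.9 for LPS. Every GC value lay above every naive value and below every activated value. On the log2 scale the change was 4.04 (SE 0.92, edgeR adjusted p = 0.00489) with CD40 and 2.54 (SE 0.87, adjusted p = 0.0386) in GC cells. The GC call was lost without GC replicate A (adjusted p = 0.0959), B (0.0664) or C (0.0515) or naive replicate C (0.0603). It was also lost with no filter on low counts (0.0937) and with only the 2 groups fitted (0.194). Without naive replicate B the change was 1.96 (SE 0.32, adjusted p = 0.00025). Without that library Acat2 was at 2.23 and Hmgcs1 at 1.97 in GC cells, and with CD40 Mvd was at 3.62 and Idi1 at 3.47, so Idi1 was no longer first in either comparison. Acat2, an acetoacetyl-CoA thiolase, rose by 1.84 in GC cells and by 2.19 with CD40.

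Mvd, the decarboxylase that makes isopentenyl diphosphate, differed more between activated and GC cells than the other 6. In naive libraries it stood at 6.82, 26.9 and 14.4 CPM and in GC libraries at 23.4, 20.2 and 25.8 CPM, and these overlapped. The CD40 libraries held 109, 166 and 115 CPM, the CpG libraries 102, 166 and 103 and the LPS libraries 109.8, 170.5 and 109. All 9 activated values lay above all naive and GC values, and B was the highest letter with each stimulus. With CD40 the log2 fold change was 3.02 (SE 0.41, edgeR adjusted p = 7.35e-05) against naive and 2.49 (SE 0.40, adjusted p = 0.00034) against GC. GC against naive gave 0.53 (SE 0.38, adjusted p = 0.309), and 1.13 (SE 0.34, adjusted p = 0.0201) without naive replicate B, where the CD40 value against naive was 3.62 (SE 0.38, adjusted p = 1.08e-05). Mvk, mevalonate kinase, rose by 1.66 with CD40, or by 2.36 without that library, and its GC value was 0.49 (SE 0.37, adjusted p = 0.329), or 1.19 (SE 0.28, adjusted p = 0.00332) without it.

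Pmvk and Fdps were not called in any of the 4 comparisons with naive cells. Pmvk, which adds a phosphate to phosphomevalonate, ranged over 28.7 to 57.2 CPM in naive, 55.6 to 58.3 in GC and 31.5 to 53.6 in activated libraries. Without naive replicate B its log2 fold change in GC cells was 0.67 (SE 0.23, adjusted p = 0.0353). Fdps, which makes farnesyl diphosphate, was counted at 0 to 2.25 CPM in naive, 2.13 to 3.63 in GC and 4.16 to 7.52 in activated libraries, and its CD40 value without naive replicate B was 1.68 (SE 0.49, adjusted p = 0.014). Of its transcript's 50-base windows, 86.4% also occur in annotated transcripts of 8 other genes, so its count depends on how reads with several matches were treated, which is not given in the sources used here. The same share was 45.9% for Acat2, 30.5% for Idi1 and 13.6% for Hmgcs1, and their levels are uncertain for that reason.

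All 11 genes from squalene to cholesterol had positive fold changes in GC cells and with every stimulus. In GC cells 8 were called higher, with each stimulus 10, and none was called lower. Without naive replicate B the counts were 9 in GC cells and 11 with each stimulus. The summed level was 201 ± 7.35 CPM in naive, 581 ± 38.2 in GC, and 1039 ± 47.4, 1003 ± 84.4 and 1003 ± 74.8 CPM with CD40, CpG and LPS.

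Cyp51, the lanosterol demethylase (ENSMUSG00000001467, GRCm38 chromosome 5, 4081145 to 4104746), had the largest fold change of the 11 in GC cells. Naive A, B and C were at 23.2, 15.2 and 21.2 CPM and GC libraries at 153, 130.2 and 148 CPM. CD40 gave 196, 217 and 238 CPM, CpG 184, 223 and 227 and LPS 181, 224 and 220.2. No naive library reached a GC library, and no GC library reached an activated library. Against naive the log2 fold change was 2.86 (SE 0.18, edgeR adjusted p = 2.4e-08) in GC cells and 3.45 (SE 0.18, adjusted p = 9.54e-09) with CD40. CD40 against GC gave 0.60 (SE 0.16, adjusted p = 0.0138), a call lost without CD40 replicate B (0.059) or C (0.0787) or GC replicate B (0.0917) or C (0.0555).

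Msmo1, the sterol C4 methyl oxidase (ENSMUSG00000031604, GRCm38 chromosome 8, 64718139 to 64733792), had the largest fold change of the 11 with CD40. It measured 12.2, 11.2 and 16.6 CPM in naive and 68.8, 64.9 and 69.0 CPM in GC libraries. Activated libraries measured 139, 168 and 155 CPM for CD40, 135, 157 and 161 for CpG and 142, 169 and 160.1 for LPS. Naive, GC and activated libraries again formed separate ranges. Its log2 fold changes were 2.34 (SE 0.16, edgeR adjusted p = 7.51e-08) for GC against naive, 3.53 (SE 0.17, adjusted p = 4.98e-09) for CD40 against naive and 1.19 (SE 0.16, adjusted p = 5.09e-05) for CD40 against GC.

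Squalene synthase Fdft1, squalene epoxidase Sqle, lanosterol synthase Lss and the sterol dehydrogenase Nsdhl rose by 2.06, 1.50, 1.31 and 1.62 on the log2 scale in GC cells. With CD40 the same 4 rose by 2.80, 2.37, 2.82 and 2.17. Fdft1 shares 30.7% of its 50-base windows with other transcripts, among them that of Ctsb on the opposite strand. Sc5d, which adds a double bond to the sterol ring, rose by 1.16 in GC cells and 1.77 with CD40. Dhcr7, which makes cholesterol from 7-dehydrocholesterol, rose by 1.47 with CD40 and was at 0.43 (SE 0.15, edgeR adjusted p = 0.0379) in GC cells. That GC call was lost without GC replicate A (0.0522) or naive replicate A (0.141). It was also lost with limma-voom (0.0545), with no filter on low counts (0.127) and with only the 2 groups fitted (0.0851).

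Hsd17b7, a sterol ketoreductase, and Ebp, a sterol isomerase, rose with activation and were not called in GC cells. Ebp ranged over 22.3 to 25.0 CPM in naive, 25.2 to 29.2 in GC and 43.1 to 59.6 in activated libraries, with a log2 fold change of 1.12 (SE 0.15, edgeR adjusted p = 4.91e-05) with CD40. Hsd17b7 ranged over 9.57 to 20.6, 20.2 to 25.2 and 30.9 to 46.8 CPM, with 1.18 (SE 0.25, adjusted p = 0.00233) for CD40. Tm7sf2, a sterol reductase, was the 1 gene of the 11 not called in any comparison with naive. Its CD40 value was 1.68 (SE 0.96, adjusted p = 0.197), and without naive replicate B, which had no count of it, 1.10 (SE 0.29, adjusted p = 0.00855), with 0.84 (SE 0.29, adjusted p = 0.0341) in GC cells.

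The genes of the Srebf factors themselves did not pass the test in GC or activated cells against naive. Srebf2, known mainly for sterol genes, was at 413, 552 and 389 CPM in naive and 364, 335 and 319 CPM in GC libraries. Under CD40 it was at 442, 527 and 495 CPM, under CpG at 481, 580.4 and 481 and under LPS at 374, 506 and 425. Naive and activated values overlapped, and the 3 GC values were the lowest of the 15. Log2 fold changes against naive were -0.41 (SE 0.17, edgeR adjusted p = 0.0676) in GC cells and 0.11 (SE 0.16, adjusted p = 0.636) with CD40. CD40 against GC gave 0.52 (SE 0.17, adjusted p = 0.0273), a call lost on leaving out any of the 6 libraries (adjusted p from 0.0558 to 0.15).

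Srebf1, known mainly for fatty acid genes, showed 103, 155 and 119 CPM in naive and 115, 102 and 137 CPM in GC libraries. The activated libraries showed 146, 190.3 and 168 CPM for CD40, 139, 169 and 129 for CpG and 130.1, 159 and 132 for LPS. Of these ranges, only those of CD40 and GC did not overlap. GC against naive gave -0.09 (SE 0.18, edgeR adjusted p = 0.737), and CD40 against naive 0.42 (SE 0.18, adjusted p = 0.0829), or 0.60 (SE 0.17, adjusted p = 0.0133) without naive replicate B. These gene counts hold neither the isoforms of Srebf1 nor the amount of cut protein.

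Scap was the 1 regulator that fell in GC cells. It stood at 101, 92.7 and 91.2 CPM in naive and 38.7, 43.1 and 40.5 CPM in GC libraries. CD40 libraries stood at 80.6, 98.5 and 83.8 CPM, CpG at 86.1, 85.3 and 79.4 and LPS at 73.6, 82.0 and 81.0. The 3 GC libraries lay below the other 12, while naive and activated libraries overlapped. Its log2 fold changes were -1.22 (SE 0.12, edgeR adjusted p = 3.53e-06) in GC cells, -0.12 (SE 0.12, adjusted p = 0.508) with CD40, and 1.10 (SE 0.12, adjusted p = 1.26e-05) for CD40 against GC. A gene on the opposite strand covers 13.2% of Scap's exon bases, and the strand setting of the counting is not given in the sources used here.

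Insig1 and Stard4, both known targets of the Srebf factors, rose with activation. For Insig1, naive libraries had 28.4, 48.7 and 31.2 CPM and GC libraries 59.8, 48.8 and 44.7 CPM. CD40 libraries had 139, 100.5 and 179.7 CPM, CpG libraries 140.4, 109 and 152 and LPS libraries 130.4, 113 and 145. Naive and GC ranges overlapped and all activated values were higher. With CD40 the log2 fold change was 1.95 (SE 0.24, edgeR adjusted p = 2.82e-05), while GC cells gave 0.50 (SE 0.24, adjusted p = 0.117), or 0.78 (SE 0.22, adjusted p = 0.0127) without naive replicate B.

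Stard4, which carries sterol through the cytosol, had 34.9, 17.9 and 25.4 CPM in naive and 68.9, 58.1 and 62.2 CPM in GC libraries. It reached 105, 118 and 115 CPM under CD40, 119, 125 and 127 under CpG and 105, 135 and 124 under LPS. Naive, GC and activated ranges were separate. It rose by 1.27 (SE 0.19, edgeR adjusted p = 0.000137) on the log2 scale in GC cells and by 2.11 (SE 0.20, adjusted p = 2.04e-06) with CD40.

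Fatty acid genes differed between GC and activated cells in which members rose. The 8 genes summed to 1385 ± 225 CPM in naive, 742 ± 48.9 in GC, and 2211 ± 244, 2149 ± 161 and 2090 ± 317 CPM with CD40, CpG and LPS. Scd1, which fell in GC cells, made up most of the naive sum. The mean log2(CPM + 1) over the 8 genes was 4.60 ± 0.397 in naive and higher, 5.66 ± 0.0699, in GC. With CD40, CpG and LPS this mean was 7.27 ± 0.179, 7.22 ± 0.118 and 7.16 ± 0.211. In GC cells 4 rose, 1 fell and 3 were not called, and with each stimulus 7 rose and 1 fell. Without naive replicate B, 4 rose and 2 fell in GC cells. The 3 not called in GC cells with all libraries were Acly, Acaca and Fasn, which together turn citrate into palmitate.

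Fasn, the fatty acid synthase, had 121, 171 and 117 CPM in naive and 107, 120.4 and 131 CPM in GC libraries, which overlapped. CD40 raised it to 404, 365 and 499 CPM, CpG to 439.6, 341 and 410.3 and LPS to 367, 346 and 441. All 9 activated values were above the other 6. GC against naive gave -0.19 (SE 0.18, edgeR adjusted p = 0.445), CD40 against naive 1.63 (SE 0.18, adjusted p = 1.08e-05) and CD40 against GC 1.82 (SE 0.18, adjusted p = 4.8e-06) on the log2 scale. In the promoters printed above, Fasn and Hmgcs1 share CCAAT matches, and Hmgcs1 alone has the TCACNCCAC match. Cyp51, Msmo1, Lss and Nsdhl rose in GC cells without that exact match, and a link between the match and these levels was not tested.

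Acaca, which makes malonyl-CoA, was counted at 32.1, 8.43 and 24.5 CPM in naive and 15.2, 14.1 and 19.3 CPM in GC libraries. Activated counts were 62.9, 60.9 and 67.8 CPM for CD40, 62.9, 60.4 and 63.1 for CpG and 60.0, 67.2 and 63.5 for LPS, all above every naive and GC value. CD40 against naive gave 1.56 (SE 0.32, edgeR adjusted p = 0.00192) and GC against naive -0.42 (SE 0.32, adjusted p = 0.333), or -0.81 (SE 0.16, adjusted p = 0.000898) without naive replicate B. The level is uncertain because 52.6% of its 50-base windows also occur in the transcript of Gm5182.

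Acly, which makes cytosolic acetyl-CoA from citrate, was at 197, 109.5 and 171 CPM in naive and 175, 151 and 122 CPM in GC libraries, which overlapped. Activated libraries were at 318, 320.1 and 348 CPM under CD40, 346, 323 and 313 under CpG and 278, 289 and 332 under LPS, and all 9 were above the rest. The log2 fold change was 1.05 (SE 0.19, edgeR adjusted p = 0.000712) for CD40 against naive and -0.09 (SE 0.19, adjusted p = 0.764) for GC against naive.

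The stearoyl-CoA desaturases, which place the double bond of oleate and palmitoleate, moved in opposite directions. Scd1 stood at 1081, 769 and 1162 CPM in naive libraries and at 343, 289 and 292 CPM in GC libraries. Its activated levels were 328, 475 and 494 CPM for CD40, 339, 484 and 479.7 for CpG and 318, 484 and 522 for LPS. Every naive library was above every other library, and letter A was the lowest with each stimulus. The log2 fold change was -1.71 (SE 0.23, edgeR adjusted p = 5.53e-05) in GC cells and -1.22 (SE 0.23, adjusted p = 0.00101) with CD40.

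Scd2 stood at 53.6, 69.3 and 59.7 CPM in naive and 104, 80.6 and 109 CPM in GC libraries. CD40 libraries reached 699, 975 and 789 CPM, CpG libraries 679, 938 and 759.9 and LPS libraries 598, 953 and 771. The naive, GC and activated ranges were separate, with activated libraries far above the rest. Tested on the log2 scale, its change was 0.69 (SE 0.20, edgeR adjusted p = 0.0166) in GC cells, 3.75 (SE 0.23, adjusted p = 3.18e-08) with CD40 and 3.07 (SE 0.22, adjusted p = 1.72e-07) for CD40 against GC. The GC call was lost without naive replicate A (0.0676).

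Per kilobase of exon, Scd1 was the highest of the 34 genes in naive cells, at 205 ± 42.4 CPM against 11.1 ± 1.46 for Scd2. In GC cells these levels were 62.9 ± 6.18 and 17.9 ± 2.79 CPM per kilobase. Over the 9 activated libraries Scd2 was the highest of the 34, at 146 ± 24.3 against 89.1 ± 16.8 for Scd1 (SD, n = 9). The genes are neighbours on chromosome 19 (GRCm38, Scd2 at 44293674 to 44306864 and Scd1 at 44394455 to 44407879), and 4.66% and 4.01% of the 50-base windows of Scd1 and Scd2 occur in other transcripts.

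The desaturases Fads1 and Fads2, which make polyunsaturated fatty acids from linoleate and linolenate, were at or near 0 in naive cells. Fads2 had no count in any naive library and 10.7, 8.68 and 6.40 CPM in GC libraries. It had 43.7, 51.8 and 56.4 CPM under CD40, 45.6, 55.3 and 52.1 under CpG and 33.9, 51.8 and 44.2 under LPS, all above GC. Against a floor of 3 counts over the naive group, it was at least 272-fold higher in GC cells and at least 1584-fold higher with CD40. The same bounds were 1607-fold for CpG and 1351-fold for LPS, and they cover counting error only. CD40 was above GC by 2.56 (SE 0.24, edgeR adjusted p = 5.61e-06) on the log2 scale.

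Fads1 had 1.04, 0 and 0.832 CPM in naive and 26.0, 22.0 and 20.6 CPM in GC libraries. Activated libraries had 48.1, 59.3 and 56.4 CPM for CD40, 48.3, 57.2 and 53.6 for CpG and 47.7, 55.0 and 53.4 for LPS. The naive, GC and activated ranges did not overlap. On the log2 scale it rose by 5.16 (SE 0.62, edgeR adjusted p = 2.52e-05) in GC cells and by 6.42 (SE 0.65, adjusted p = 6.99e-06) with CD40, while CD40 against GC gave 1.25 (SE 0.50, adjusted p = 0.0797) and was not called. Without naive replicate B, where it had no count, the changes were 4.60 in GC cells and 5.85 with CD40.

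**Figure D3:**
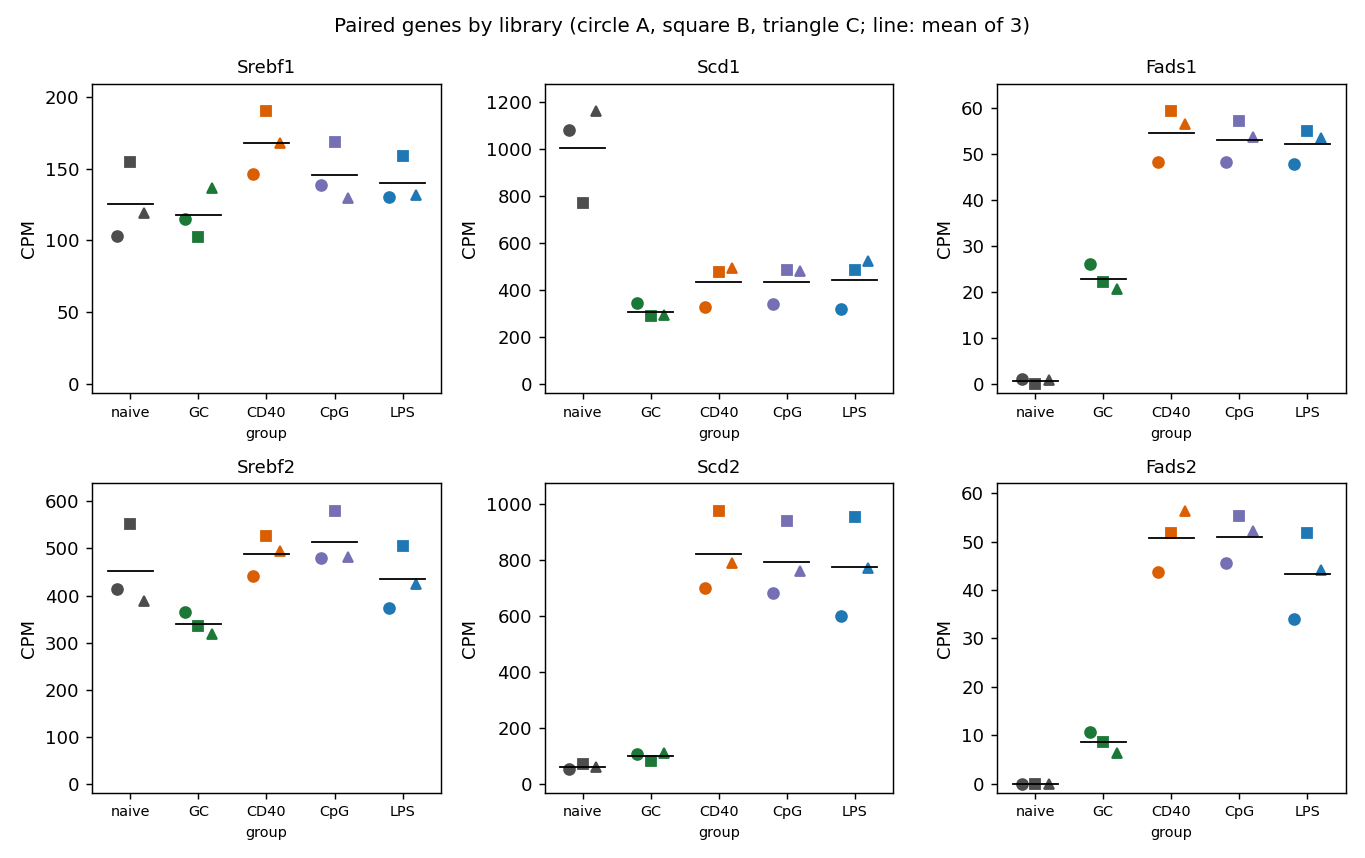
CPM of 3 pairs of related genes by group, with circles, squares and triangles for replicates A, B and C and a line at the mean of 3. Srebf1 and Srebf2 overlap between naive and activated cells, Scd1 falls where Scd2 rises, and Fads1 and Fads2 rise from values at or near 0.

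Elovl6, which lengthens palmitate to stearate, had 5.11, 0 and 3.47 CPM in naive and 16.1, 17.9 and 25.4 CPM in GC libraries. Activated libraries had 23.8, 44.6 and 41.6 CPM under CD40, 23.1, 44.2 and 28.8 under CpG and 21.6, 43.6 and 27.7 under LPS. GC and activated ranges overlapped, and both lay above naive. It rose by 2.78 (SE 0.90, edgeR adjusted p = 0.0308) on the log2 scale in GC cells and by 3.67 (SE 0.94, adjusted p = 0.00925) with CD40. The GC call was lost without GC replicate A (0.0508), B (0.0541) or C (0.0698). It was also lost with no filter on low counts (0.0774) and with only the 2 groups fitted (0.159). Without naive replicate B the GC value was 2.20 (SE 0.40, adjusted p = 0.000553). With CD40 the value was 3.09 (SE 0.41, adjusted p = 5.48e-05) without naive replicate B, and the call was lost without the activated libraries of letter B (adjusted p = 0.0521).

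The 3 genes of liver X receptor signalling and efflux fell in GC cells and with every stimulus, and the exporters ranked GC and activated cells in opposite orders. Abcg1, which moves sterol to high-density lipoprotein, had 55.7, 78.4 and 73.3 CPM in naive and 2.67, 2.13 and 2.703 CPM in GC libraries. It kept 10.1, 17.0 and 14.6 CPM under CD40, 8.04, 15.5 and 11.1 under CpG and 7.19, 11.7 and 13.2 under LPS. Activated libraries lay between GC and naive with no overlap. Fold changes on the log2 scale were -4.79 (SE 0.34, edgeR adjusted p = 1e-07) in GC cells, -2.32 (SE 0.31, adjusted p = 4.54e-05) with CD40 and 2.47 (SE 0.31, adjusted p = 3.6e-05) for CD40 against GC.

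Abca1, which passes sterol to apolipoprotein A-I, had 145, 75.7 and 105 CPM in naive and 14.3, 12.6 and 18.9 CPM in GC libraries. Its activated values were 0.807, 1.72 and 0 CPM for CD40, 1.29, 0.370 and 1.05 for CpG and 0.594, 0.243 and 0.887 for LPS. Here the activated libraries were the lowest, the GC libraries were next, and no ranges of naive, GC and activated cells overlapped. The log2 fold change was -2.83 (SE 0.75, edgeR adjusted p = 0.0104) in GC cells, -6.98 (SE 0.92, adjusted p = 9.12e-05) with CD40 and -4.15 (SE 0.82, adjusted p = 0.00215) for CD40 against GC. The GC call was lost without GC replicate A (0.0562) or B (0.0582). Nr1h2, which encodes liver X receptor beta, ranged over 189 to 278 CPM in naive, 113 to 136 in GC and 77.3 to 108 in activated libraries, with -0.85 (SE 0.17, adjusted p = 0.00153) in GC cells and -1.24 (SE 0.17, adjusted p = 8.45e-05) with CD40.

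**Figure D4:**
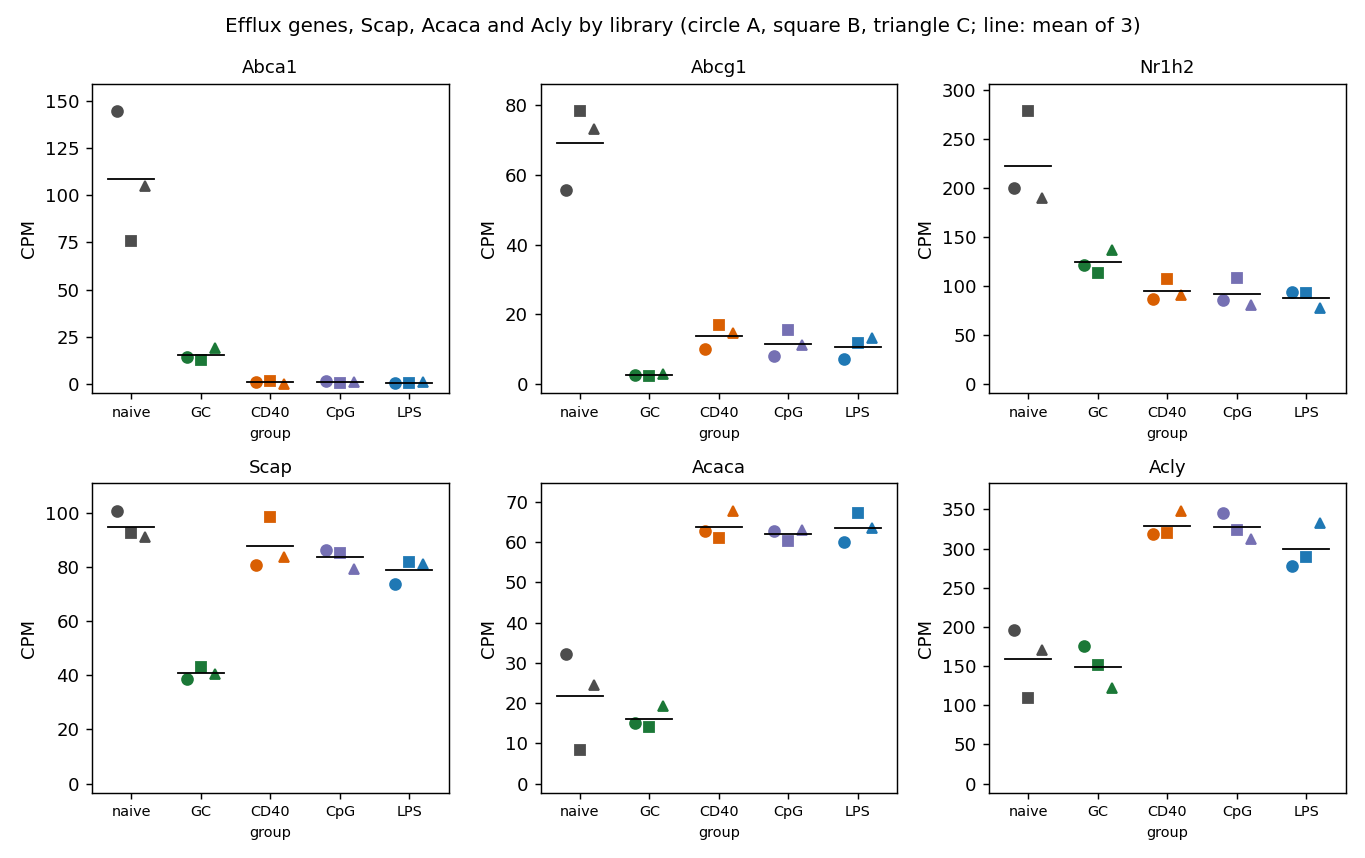
CPM of 6 genes by group, with circles, squares and triangles for replicates A, B and C and a line at the mean of 3. Abca1, Abcg1 and Nr1h2 are highest in naive libraries, Scap is lowest in GC libraries, and Acaca and Acly are highest in the 9 activated libraries.

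Activated cells were above GC cells in most of the 34 genes. Against GC, 22 rose and 1 fell under CD40, 19 rose and 1 fell under CpG, and 19 rose and 2 fell under LPS. Of all genes, 15.9%, 16.4% and 15.8% were higher and 12.4%, 12.6% and 12.2% lower. Medians over the 34 genes were 0.88, 0.94 and 0.87, beside 0.05, 0.05 and 0.06 over all genes. With all 3 stimuli 17 genes were higher, and Abca1 was the 1 gene lower with all 3. CD40 raised 2 of 7 early genes, 9 of 11 late genes, 5 of 5 regulators and 5 of 8 fatty acid genes over GC. The CD40 calls for Mvk, Hsd17b7 and Srebf1 were lost on leaving out any of the 6 libraries (adjusted p from 0.0503 to 0.119, 0.0562 to 0.177 and 0.0548 to 0.221), and that for Sc5d without GC replicate C (0.0701). Under LPS the calls for Hmgcs1 (higher) and Nr1h2 (lower) were lost on leaving out any of the 6 libraries (adjusted p from 0.0622 to 0.137 and 0.0551 to 0.133). Cyp51, 1 of the 17 genes, was lost on leaving out 5 of the 6 libraries under CpG and 5 under LPS (adjusted p up to 0.111 and 0.135). Fdft1, also 1 of the 17, was lost under CpG without CpG replicate B (edgeR adjusted p = 0.0560) or GC replicate B (0.0566). Leaving out some single libraries also ended the CpG calls of Mvk and Srebf2 and the LPS call of Sc5d (adjusted p up to 0.0864, 0.0967 and 0.199).

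Stimulus and letter are taken from the titles, and whether they could be exchanged there was not tested, so the stimulus and letter results hold for the libraries as titled. No member passed the test between titled stimuli. In the fit of all 15 libraries, edgeR called 0 of 34 members and 0 of 17144 genes (0%) in each of the 3 comparisons between stimuli. An unadjusted p under 0.05 was reached by 92 genes for CD40 against CpG, 115 for CD40 against LPS and 71 for CpG against LPS, with 0 members among them. DESeq2 and limma-voom each called 0, 0 and 1 gene in these comparisons and 0 members. Activated libraries of the same letter deviated together, so the letter was also fitted as a replicate block in the 9 activated libraries. That fit called 27, 44 and 45 of 15727 genes (0.172%, 0.280% and 0.286%) and again 0 members, with 3, 7 and 4 members at an unadjusted p under 0.05. The lowest adjusted p among members was for Srebf2, with CpG minus LPS at 0.24 (95% interval 0.08 to 0.41, adjusted p = 0.0787) on the log2 scale. Srebf1 had CD40 minus LPS at 0.26 (95% interval 0.08 to 0.44, adjusted p = 0.105). For Scd2 CD40 minus LPS was 0.10 (95% interval -0.06 to 0.25, adjusted p = 0.643) and for Abcg1 0.38 (95% interval -0.10 to 0.85, adjusted p = 0.51). Intervals use 4 residual degrees of freedom and are not adjusted for the number of genes.

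Between letters, members did pass the test. With the stimulus in the model, A against B had 2 of 34 higher and 18 lower, where 31.1% of 15727 genes were called (16.6% higher, 14.5% lower). A against C had 0 higher and 12 lower, where 23.4% were called (11.9% and 11.5%). B against C had 10 higher and 3 lower, where 34.8% were called (17.3% and 17.5%). Taken in either direction, this count is near the share of all genes and is not read as a result about the members. Libraries of the same letter deviated together. If the 3 libraries of a letter came from the same animal or culture, these p-values do not measure the spread between animals or cultures. Insig1, Elovl6 and Scd2 were called in every pair of letters, and 10 genes, among them Hmgcs1, Lss, Sc5d, Scap, Acly and Acaca, in none. Mvd was 168 ± 2.46 CPM in B (n = 3 stimuli) against 107 ± 4.31 in A and 109 ± 5.83 in C. Idi1 was 89.2 ± 5.85 CPM in C against 64.4 ± 7.12 in A and 57.9 ± 1.47 in B. Immunoglobulin genes also moved with the letter, at 1.85 to 1.92% of counts in A, 1.16 to 1.20% in B and 5.03 to 7.96% in C, and their part in these differences was not tested.

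**Figure D5:**
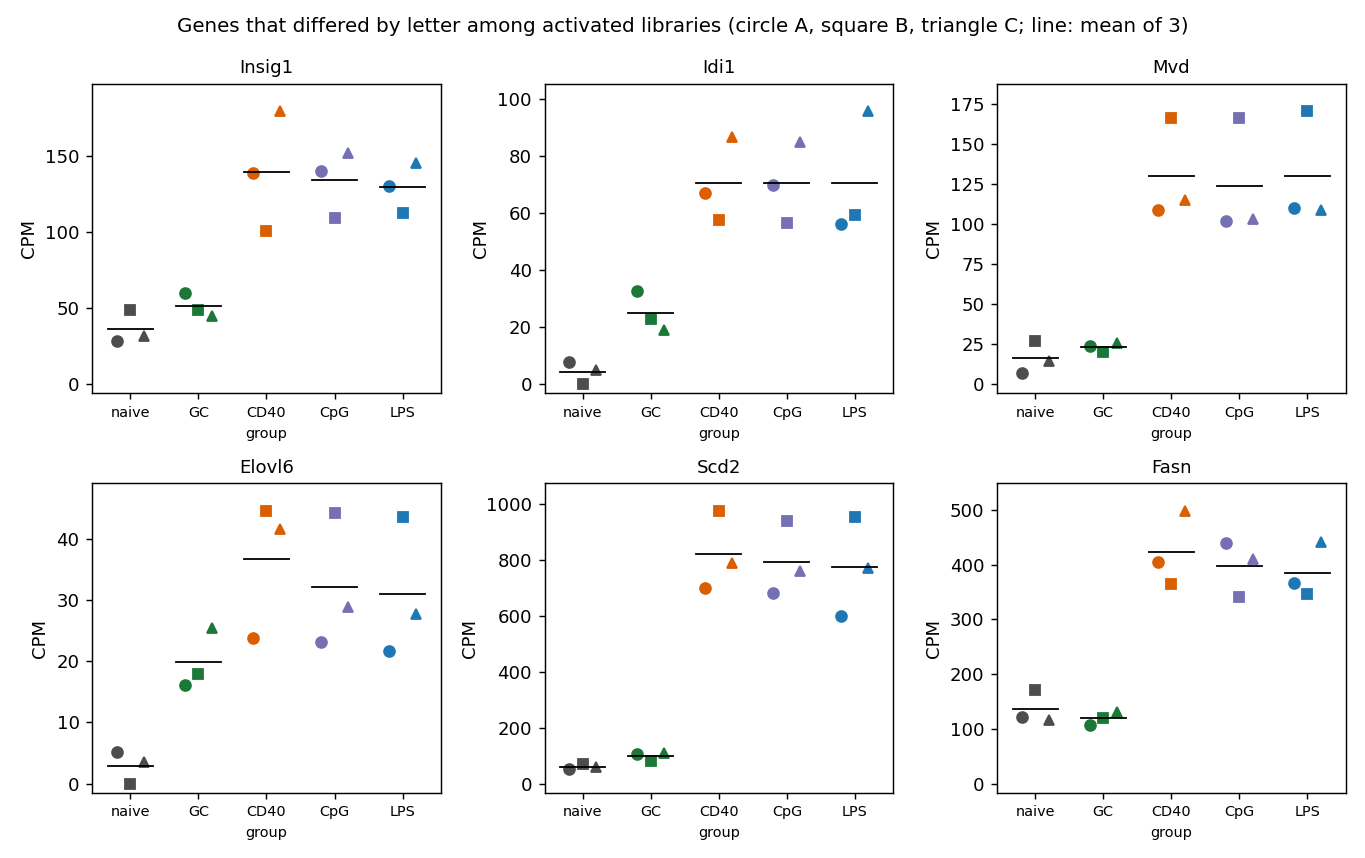
CPM of 6 genes by group, with circles, squares and triangles for replicates A, B and C and a line at the mean of 3. Among activated libraries, with each stimulus, Insig1 and Idi1 are highest in C, Mvd, Elovl6 and Scd2 are highest in B, and Fasn is lowest in B.

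Grouping activated libraries by letter in place of stimulus, an alternative chosen after seeing the data, gave nearly the same counts against naive. Letters A, B and C had 24, 25 and 25 of 34 higher and 4 lower each, where 40.5%, 43.2% and 42.5% of all genes were called (23.4%, 24.3% and 24.1% higher, 17.1%, 18.8% and 18.4% lower). The 24 genes higher with all 3 stimuli were also higher with all 3 letters, and so were the 4 lower genes lower. Both groupings use the same activated and naive libraries, so this agreement was nearly fixed in advance and is no separate support.

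Other genes of lipid metabolism were counted in the same fit, with a background of 17.9% called higher and 16.5% called lower for GC cells, and 19.8% and 14.3% for CD40. Values of these lists without naive replicate B are not given, so how far they rest on that library is not shown. Of 17 other genes of sterol regulation and trafficking, 0 were higher and 9 lower in GC cells (median log2 fold change -0.62), and 3 were higher and 5 lower with CD40 (median -0.20). Mylip, a ubiquitin ligase induced by liver X receptors, stood at 207 ± 63.5 CPM in naive, 38.0 ± 4.43 in GC and 6.58 ± 1.43 with CD40, with log2 fold changes of -2.45 and -4.97. Npc1 and Npc2, which move cholesterol out of lysosomes, fell by 2.32 and 1.74 in GC cells. The sterol acyltransferase gene Soat2 and the retinoid X receptor gene Rxra rose by 2.33 (SE 0.60, edgeR adjusted p = 0.00788) and 4.40 (SE 1.57, adjusted p = 0.0438) with CD40. Their naive means were 0.841 and 0.555 CPM.

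Of 20 other fatty acid and lipid synthesis genes, 5 rose and 5 fell in GC cells (median 0.25), and 15 rose and 1 fell with CD40 (median 1.06). Slc25a1, the mitochondrial citrate carrier that supplies Acly, stood at 39.9 ± 17.6 CPM in naive, 47.8 ± 5.74 in GC and 188 ± 63.9 with CD40, with a log2 fold change of 2.24 for CD40. Acacb and Dgat2 rose by 5.21 (SE 1.21, edgeR adjusted p = 0.00402) and 4.81 (SE 1.23, adjusted p = 0.00766) with CD40. Their naive means were 0.116 and 0.0925 CPM. In GC cells Mid1ip1, an activator of acetyl-CoA carboxylase, rose by 1.92, while the acetyl-CoA synthetase Acss2 and the triglyceride synthesis enzyme Dgat1 fell by 2.96 and 1.85.

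Of 10 genes of the isoprenoid branch, 3 rose and 2 fell in GC cells, and 2 rose and 2 fell with CD40 (medians 0.25 and 0.13). With 10 genes, the CD40 counts are near the background of 19.8% higher and 14.3% lower. Dhdds and Nus1 form the enzyme that makes the dolichol chain, and with CD40 they rose by 1.46 and 0.61, while Coq2 of ubiquinone synthesis fell by 0.58. Pdss1, also of ubiquinone synthesis, Dhdds and the farnesyltransferase subunit Fnta rose by 1.64, 0.97 and 0.73 in GC cells.

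Of 16 fatty acid oxidation genes, 3 rose and 1 fell in GC cells, and 5 rose and 1 fell with CD40 (medians 0.17 and 0.30). The 3 higher in GC cells are near the background of 17.9%, and the counts are no result about the list. Cpt1a, which admits fatty acids to mitochondria, stood at 88.0 ± 37.6 CPM in naive, 102 ± 6.10 in GC and 22.5 ± 8.84 with CD40. Its log2 fold change was -1.97 (SE 0.335, edgeR adjusted p = 0.000414) for CD40. Cpt2 and Acads rose by 1.67 and 1.26 with CD40. In GC cells Etfa and Acads rose by 1.75 and 0.76 and Acadvl fell by 1.13.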

How the data were processed

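RNA-seq counts for 15 libraries were used as deposited by the authors: whole numbers of reads per Ensembl gene, made with STAR 2.7.10a and featureCounts 2.0.6 on mm10/GRCm38, per the submitters' processing notes. How strand and reads with several matches were treated is not given in the sources used here. Symbols came from GENCODE M21, which named 54809 of 54838 gene IDs. TMM scaling and testing used edgeR 4.0.16 under R 4.3.3 (filterByExpr on groups, robust glmQLFit and glmQLFTest, 1 mean per group, 10 comparisons, two-sided, Benjamini-Hochberg adjustment over 17144 genes, threshold 0.05). SE is the absolute log2 fold change over the root of F. The 9 activated libraries were also fitted with letter and stimulus together (15727 genes). Alternatives used DESeq2 1.42.0 and limma 3.58.1. The fit was tested on simulated data.

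The members, gene lists and tests were chosen with earlier results of these data known. Every member is named. Values in every library are given for the called member of each step with the largest change in GC or with CD40 against naive, for members whose sign differs between GC and activated cells, and for 3 pairs of related genes. Of each neighbouring list, at most 3 called genes are named per comparison. Hmgcs1, Mvd, Scap, Insig1 and Elovl6 are given in full besides, chosen after their values were seen. Deviations of activated libraries of the same letter from their group means correlated between 0.636 and 0.761 in 9 of 9 pairs, and those of other pairs between -0.124 and 0.115 in 21 pairs, so letters pair the activated libraries alone. Sequences are from RefSeq promoter tables, and motifs were searched on both strands.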

Additional observations from a re-analysis of the deposited data

Results flagged for a closer look

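Among the activated libraries, 3 members differed between every pair of replicate letters in a direct test of the difference, with the stimulus in the model (edgeR's quasi-likelihood test). Insig1, the brake on Srebf processing, was 0.34 higher in A than in B on the log2 scale, and its differences from C were -0.22 for A and -0.56 for B. Elovl6, the fatty acid elongase, differed by -0.95 for A against B, -0.50 for A against C and 0.45 for B against C. Scd2, the desaturase, differed by -0.54, -0.24 and 0.30 in the same order. Insig1 was thus highest in C and lowest in B, and Elovl6 and Scd2 were highest in B and lowest in A. What the letters stand for is not given in the labels, and with 3 stimuli per letter each difference rests on 3 libraries against 3. If those of a letter came from the same animal or culture, they are not separate replicates of it. Some of these calls were lost when the libraries of 1 stimulus title were left out. For Insig1, A against C was lost without the libraries titled CD40 (edgeR adjusted p = 0.301) or LPS (0.0568). For Elovl6, A against C was lost without those titled CD40 (0.0688), and B against C without those titled CpG (0.0555) or LPS (0.0765). For Scd2, A against C was lost without those titled LPS (0.105).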

How the results depend on the processing

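Of 214 member results past the threshold, 0 changed direction in 2956 recomputed values and 182 values no longer passed it. Among the 169 results from comparisons of groups, 31 lost the call at least once. Letter A against C fell to 5 members called without the libraries titled LPS, and B against C to 8 without those titled CpG, both with fewer libraries. Under limma-voom the median log2 fold change of members against naive was 2.05 with CD40, 2.11 with CpG, 2.06 with LPS and 0.80 in GC cells, and the cause was not tested. Leaving out 1 library at a time gave medians of 0.58 to 0.88 for GC against naive and 1.76 to 1.96 for LPS against naive. Counts of members called ranged over 17 to 27 for GC against naive, 28 to 31 for CD40 against naive and 17 to 19 for CD40 against GC (23 with all libraries). The shares of all genes called in these fits are not given here. With the letter as a replicate block in all 15 libraries, which letters of naive and GC cells do not pair, 22, 29 and 23 members were called in the same order. For this block fit and the letter fits above, the shares are not given either. None of these counts is read as a result about the members. The block in the 9 activated libraries left 0 members called between stimuli. Fitting only the 2 groups compared ended the CD40 calls against naive of Idi1, Elovl6, Mvk and Hsd17b7 (edgeR adjusted p = 0.0596, 0.0867, 0.0517 and 0.0529). It also ended those of Idi1, Elovl6, Hsd17b7 and Acaca with CpG and of Idi1, Elovl6, Hsd17b7 and Mvk with LPS. In GC cells it ended the calls of Idi1, Elovl6 and Dhcr7 against naive. Library totals or DESeq2 size factors in place of TMM changed the difference between groups in mean log2 scaling factor by at most 0.0577. Over 300 bases, CCAAT was found in 19 genes against 18. Counts at or near 0 limit Fads1, Fads2, Idi1, Elovl6, Tm7sf2 and Fdps in naive and Abca1 in activated libraries.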
